A study of Mus musculus with 36 samples.

Results

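The core circadian clock of mammals is driven by an activating limb and trimmed by a loop of nuclear receptors, and the transcripts of 7 genes of that machinery are described here. They are the activators Arntl (also called Bmal1), Clock and Npas2, the REV-ERB receptor genes Nr1d1 and Nr1d2, and the ROR receptor genes Rora and Rorb. Every probe set that the platform annotation assigned to one of these symbols was taken, which gave 7 of the 18193 genes named on the array and 23 of the 45037 probe sets tested. Rora had 9 of them, Clock 4, Rorb 3, Arntl, Npas2 and Nr1d2 2 each, and Nr1d1 1. A probe set is a group of short oligonucleotides that reads a stretch of a transcript, and no probe set of these genes carried a second symbol. Male mice of the inbred strains AKR/J, DBA/2J and C57BL/6J, 12 to 13 weeks old, were kept awake for 6 h from light onset or left undisturbed in their home cages. Tissue was taken from all of them at Zeitgeber time (ZT) 6, where ZT 0 is light onset, and RNA of whole brain and of liver was hybridised to Affymetrix arrays. The sleep-deprived mice and the control mice of the 3 strains thus gave 6 groups in each tissue, with 3 arrays a group and 36 arrays in all. The mice carried no transgene or targeted allele that the labels mention. Each array held RNA pooled from 3 mice, so the spread between arrays is that between pools and not between single mice. Whole brain mixes all regions, and in such bulk samples fewer cells of a type and less RNA per cell cannot be told apart.

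ARNTL pairs with CLOCK, or with its relative NPAS2, and the pair switches on genes that carry E-boxes, among them the Per and Cry repressors and the REV-ERB genes. The REV-ERB proteins, which bind haem, repress Arntl and other genes through response elements that they share with the ROR receptors, which activate through the same sites. Npas2 is best known as a forebrain counterpart of Clock, Rorb as a gene of sensory brain areas and retina, and Rora as a gene of cerebellum and thalamus that liver also uses. In liver, REV-ERB receptors are known for the control of lipid and bile acid genes.

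The tissue labels held against the neuronal gene Snap25 and the hepatocyte gene Alb. Snap25 read 12.58 to 12.93 on brain arrays, and Alb read 14.58 to 14.71 on liver arrays, on the log2 scale of the deposited values. Not every listed marker was particular to a tissue. Ttr, on the liver list, read 12.78 to 12.97 in brain, and Aldh1l1, on the astrocyte list, read 12.48 to 12.86 in liver. Of the 8 marker lists for neurons, glia, pituitary, pineal, suprachiasmatic nucleus and hypothalamus, liver and blood, 0 genes were called for sleep deprivation in brain and 1 in liver, the synaptic vesicle gene Syt1 (-0.58 ± 0.08, adjusted p = 0.0002). Syt1 read 6.08 to 7.39 in liver, where the neuronal gene Snap25 read 2.51 to 2.76, and its part in the liver results was not tested. A few arrays differed from the rest. Among the brain arrays, 3 from sleep-deprived mice (array 3 of AKR/J, array 2 of DBA/2J and array 1 of C57BL/6J, called narrow below) had a standard deviation over probe sets of 1.91 to 1.97, against 1.98 to 2.06 on the other 15. The 3′ to 5′ difference of beta-actin probe sets, a sign of RNA quality, was 0.98 and 1.13 on brain control array 3 of DBA/2J and control array 2 of C57BL/6J, against 0.58 to 0.89 on the other 16. In liver it was 2.16 on control array 1 of DBA/2J, against 0.96 to 1.45 on the other 17. The narrow arrays thus all came from sleep-deprived mice, and the 2 brain arrays of raised beta-actin difference from controls. The cut for narrow arrays left no clear gap, since brain control array 2 of C57BL/6J was at 1.98 and that of AKR/J at 1.99. Control arrays 2 and 3 of AKR/J in each tissue have conflicting labels, with ZT 0 in the source name and ZT 6 in the title, and they were kept as ZT 6 controls. Pituitary transcripts also varied between brain pools: growth hormone (Gh) read 9.83 to 11.41 in sleep-deprived AKR/J brain and 4.68 to 5.18 in AKR/J control brain. In C57BL/6J brain Gh read 4.24 to 12.16 after sleep deprivation and 10.55 to 11.92 in controls. In DBA/2J brain it read 10.92 to 12.36 after sleep deprivation and 10.36 to 12.87 in controls. The summed level of the 4 pituitary markers was 10.19 to 11.77 in sleep-deprived AKR/J brain and 7.27 to 7.45 in AKR/J control brain, and their part in the results was not tested.

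Promoter windows from 250 bases before to 50 after each annotated start were available for all 7 genes, 11 windows in all, from RefSeq on GRCm38.p6. They were searched on both strands for the ROR response element (AANT directly before AGGTCA), for its core AGGTCA alone, for the E-box CACGTG, for the related E-prime box CACGTT and for the cAMP response element TGACGTCA. The stretches below carry the matches in Arntl, Nr1d2 and Nr1d1, the genes through which the receptor loop runs. Capitals mark the match, which in Arntl also contains the core and in Nr1d1 reads CACGTT on the opposite strand.
Arntl: ggaaggcagaAAGTAGGTCAgggacggagg
Nr1d2: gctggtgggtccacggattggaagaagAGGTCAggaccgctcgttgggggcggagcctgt
Nr1d1: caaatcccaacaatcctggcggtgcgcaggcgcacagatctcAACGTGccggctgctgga
The Arntl stretch lies at chr7:113207528-113207557 on the plus strand, just after a start of the gene. The Nr1d2 stretch lies at chr14:18239151-18239210 and the Nr1d1 stretch at chr11:98775388-98775447, both on the minus strand and before the start. The full ROR element was present in 1 of the 11 windows and in 0.22% of all 32817 promoter windows of the same length. The core was present in 3 of the 11 and in 16.3% of all, and CACGTT in 2 of the 11 and 4.69% of all. The matches not printed above were a core in a window of Clock and a CACGTT in a window of Rorb. CACGTG and TGACGTCA were in 0 of the 11 windows, against 7.15% and 1.79% of all. A match describes letters in these windows and is not a measured binding site.

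The first comparison asked how the activator transcripts stood in brain after 6 h without sleep. Arntl and Npas2 were higher in sleep-deprived brain on 1 probe set each, by about the same amount, while no Clock probe set passed the threshold, an adjusted p under 0.05 from limma over all probe sets. Arntl on probe set 1425099_a_at read 7.42, 7.33 and 7.21 in sleep-deprived AKR/J brain, against 6.99, 7.01 and 6.99 in AKR/J controls. In DBA/2J it read 7.27, 7.27 and 7.45 after sleep deprivation, against 6.95, 6.96 and 6.90 in controls. In C57BL/6J it read 6.86, 7.29 and 7.46 after sleep deprivation, against 7.03, 6.80 and 7.03 in controls. The groups did not overlap in AKR/J and DBA/2J, and in C57BL/6J they did, through sleep-deprived array 1, one of the arrays of narrow spread. The mean difference over the strains, sleep-deprived minus control, was 0.32 ± 0.07 (limma, SE), or 1.25-fold, with an adjusted p of 0.0244. By group mean the order was sleep-deprived DBA/2J (7.33 ± 0.10, SD, n = 3), AKR/J (7.32 ± 0.10) and C57BL/6J (7.21 ± 0.31), then control AKR/J (7.0 ± 0.01), C57BL/6J (6.95 ± 0.13) and DBA/2J (6.94 ± 0.03). Each neighbouring pair in that order differed by less than the larger SD of the pair. The other Arntl probe set, 1457740_at, was dim, with group means of 4.27 to 4.42, and gave 0.025 ± 0.11 (adjusted p = 0.9610).

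Npas2, which can take the place of Clock as partner of Arntl, had a similar pattern on 1421036_at. It read 5.53, 5.85 and 5.57 in sleep-deprived AKR/J brain, against 5.40, 5.18 and 5.30 in controls. In DBA/2J it read 5.40, 5.57 and 5.57 after sleep deprivation, against 5.15, 5.32 and 5.04 in controls. In C57BL/6J it read 5.45, 5.44 and 5.56 after sleep deprivation, against 5.36, 5.05 and 5.23 in controls. Within each of the 3 strains every sleep-deprived array lay above every control array. The mean difference was 0.32 ± 0.06, or 1.25-fold (adjusted p = 0.0126), and the 3 strains gave 0.36 (AKR/J), 0.34 (DBA/2J) and 0.27 (C57BL/6J). The brighter Npas2 probe set, 1421037_at, overlapped between conditions in every strain and gave 0.13 ± 0.11 (adjusted p = 0.7372). Its lowest sleep-deprived arrays were the narrow arrays of all 3 strains, at 6.22 (AKR/J), 6.40 (DBA/2J) and 6.13 (C57BL/6J), against 6.21 to 6.67 over the 9 control arrays. Without those 3 arrays it gave 0.30 ± 0.07 (adjusted p = 0.0229), a setting added after the data were seen.

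Clock encodes the partner that binds DNA with ARNTL, and its 4 probe sets did not move alike in brain. On 1418659_at the 9 sleep-deprived arrays had a lowest value of 6.89, a median of 7.56 and a highest of 7.69, against 6.90, 7.24 and 7.42 for the 9 control arrays. The lowest sleep-deprived value in each strain was on the narrow array, and the lowest control value was on C57BL/6J control array 2, one of the arrays with a raised beta-actin difference. The mean difference was 0.24 ± 0.11 and did not pass (adjusted p = 0.3717). In settings added after the data were seen, it was 0.38 ± 0.08 without the narrow arrays (adjusted p = 0.0176). Without all 5 arrays that stood apart it was 0.33 ± 0.06 (adjusted p = 0.0092). The other 3 Clock probe sets gave 0.052 ± 0.06 (1418660_at), -0.047 ± 0.05 (1435775_at) and -0.10 ± 0.06 (1439314_at), and none of them passed in any of these settings.

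**Figure D1:**
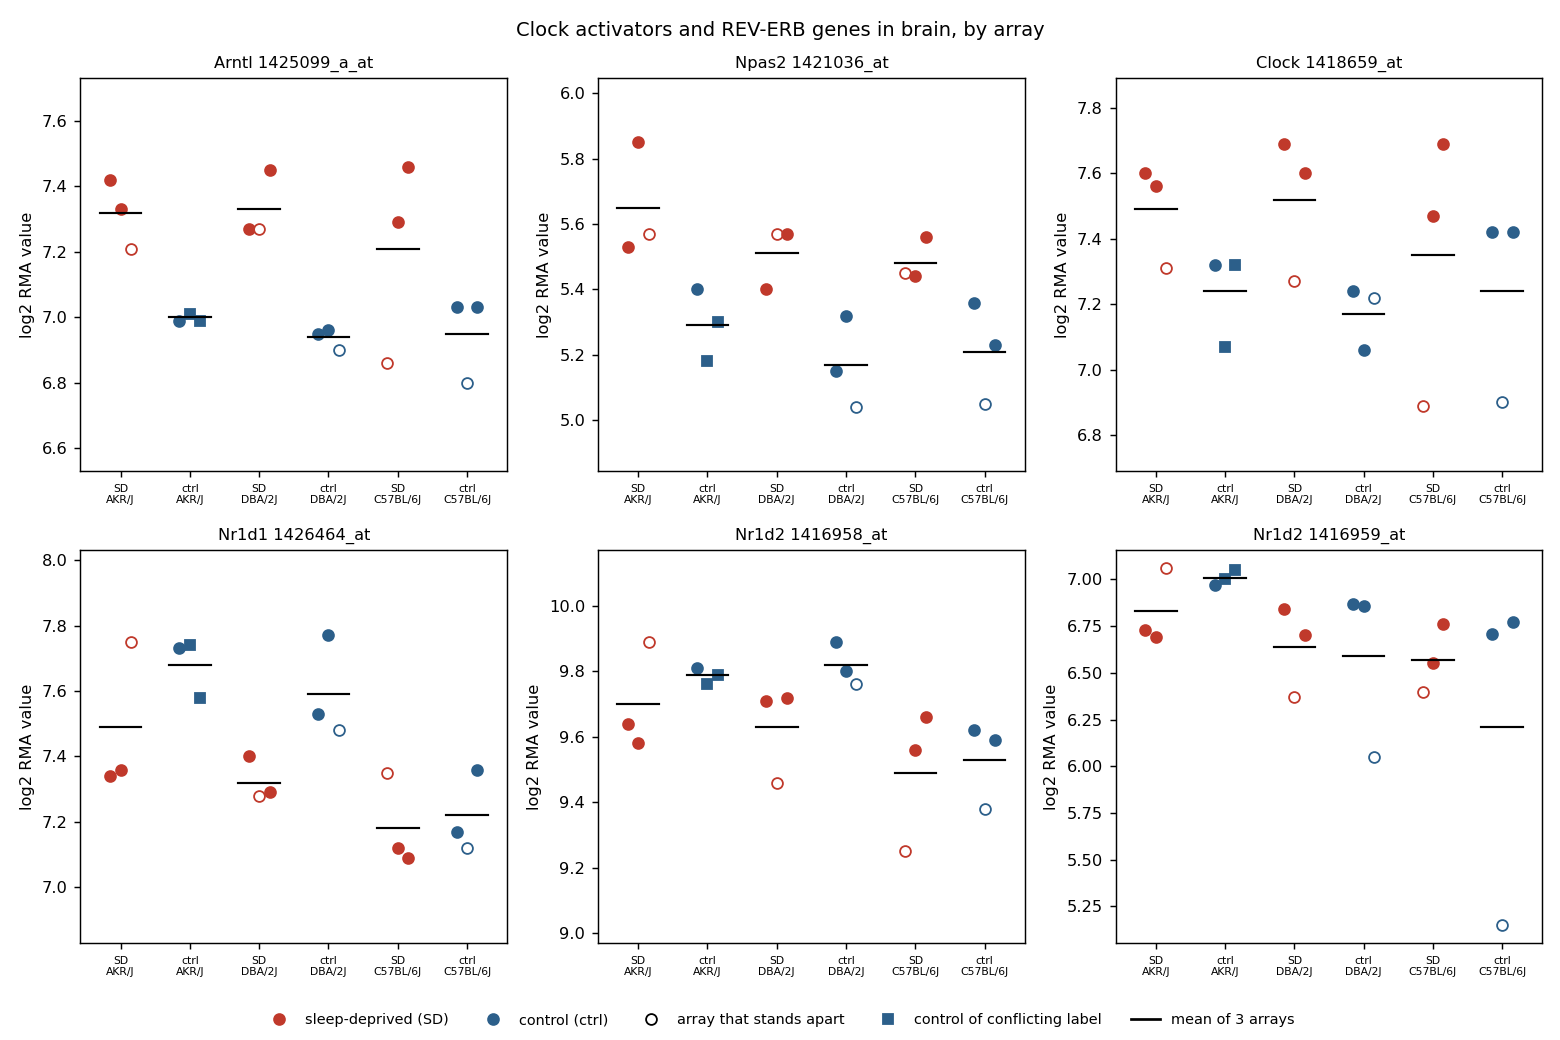
Log2 RMA values in brain by array for 6 probe sets of Arntl, Npas2, Clock, Nr1d1 and Nr1d2; sleep-deprived groups (SD, red) stand left of their controls (ctrl, blue), bars are means of 3 arrays, open symbols are arrays that stand apart and squares are controls of conflicting label. For Npas2 1421036_at each sleep-deprived array lies above the controls of its strain, while for Nr1d2 1416959_at the 2 open control points sit at 6.05 and 5.15.

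The REV-ERB genes, whose products repress Arntl, gave no call in brain. Nr1d1 read 7.34, 7.36 and 7.75 in sleep-deprived AKR/J brain, against 7.73, 7.74 and 7.58 in controls. In DBA/2J it read 7.40, 7.28 and 7.29 after sleep deprivation, against 7.53, 7.77 and 7.48 in controls, and in C57BL/6J 7.35, 7.12 and 7.09, against 7.17, 7.12 and 7.36. The sleep-deprived arrays lay below the controls in DBA/2J alone, and the highest sleep-deprived value in AKR/J and in C57BL/6J was on the narrow array. The mean difference was -0.17 ± 0.07 (adjusted p = 0.3030). Without the 3 narrow arrays it was -0.23 ± 0.06 (adjusted p = 0.0401), and without all 5 arrays that stood apart -0.27 ± 0.06 (adjusted p = 0.0199). These settings were added after the data were seen. Nr1d2 on its bright probe set 1416958_at had a lowest, median and highest value of 9.25, 9.64 and 9.89 in sleep-deprived brain, against 9.38, 9.76 and 9.89 in control brain, and gave -0.10 ± 0.07 (adjusted p = 0.6105). Its second probe set, 1416959_at, read 5.15 on C57BL/6J control array 2 and 6.05 on DBA/2J control array 3, the arrays of raised beta-actin difference, against 6.37 to 7.06 over the sleep-deprived arrays. It gave 0.075 ± 0.18 with all arrays and -0.16 ± 0.05 without the 5 arrays that stood apart, and passed in neither case (adjusted p = 0.9287 and 0.1016). The part of RNA quality in these values was not tested.

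The ROR genes, whose products act on the same response elements as activators, gave no call either. The brightest Rora probe set, 1424034_at, had a lowest, median and highest value of 8.49, 8.98 and 9.13 in sleep-deprived brain, against 8.79, 9.09 and 9.22 in control brain. Its mean difference was -0.16 ± 0.07 (adjusted p = 0.4038). The 9 Rora probe sets ranged between -0.25 and 0.035, with the smallest adjusted p at 0.2651 for 1455165_at (-0.16 ± 0.06). Rorb on 1439862_at read 5.84 to 6.60 in sleep-deprived brain with a median of 6.13, against 5.99 to 6.82 with a median of 6.43 in control brain. Its difference of -0.24 ± 0.10 did not pass (adjusted p = 0.3058), and it was -0.11 without the arrays that stood apart. Rorb on 1455799_at gave -0.26 ± 0.17 with all arrays (adjusted p = 0.6204) and 0.012 ± 0.06 without those arrays. Its lowest values, 4.03 in AKR/J and 4.73 in DBA/2J, were both on narrow arrays. Rorb on 1425162_at gave -0.098 ± 0.09 (adjusted p = 0.7603).

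Over the 23 probe sets limma called 2 higher and 0 lower for the mean effect in brain. Of all probe sets 1.73% were called, 0.688% higher and 1.04% lower. The median difference of the 23 was -0.047, against -0.0018 over all probe sets, and 10 were above 0. Within AKR/J, DBA/2J and C57BL/6J 0 of the 23 passed, where 0.3%, 0.104% and 0.0377% of all probe sets were called. An unadjusted p under 0.05 was met by 5, 3 and 2 of the 23 in those strains. All probe sets were not counted at that looser threshold, so those counts have no background to compare with. Both calls were lost without the AKR/J arrays: with that strain left out, Arntl gave 0.32 (adjusted p = 0.3194) and Npas2 0.30 (adjusted p = 0.1985). With the 2 AKR/J controls whose labels conflict left out, Arntl gave 0.33 (adjusted p = 0.1254) and Npas2 0.29 (adjusted p = 0.1164). In these settings both differences moved by less than 1 SE. Npas2 kept its call in the other 27 of 29 alternatives. Arntl also lost its call with arrays centred on their medians (adjusted p = 0.0580), in one fit over both tissues (adjusted p = 0.0858) and when any one of 7 of the 18 arrays was left out (0.30 to 0.32, adjusted p = 0.0512 to 0.0557). Those 7 were array 1 of AKR/J, array 3 of DBA/2J and array 2 of C57BL/6J among the sleep-deprived, and arrays 1 and 3 of AKR/J, array 3 of DBA/2J and array 2 of C57BL/6J among the controls. In brain the 2 AKR/J controls with conflicting labels read 7.01 and 6.99 for Arntl, against 6.99 on the third AKR/J control. For Nr1d1 they read 7.74 and 7.58, against 7.73. In liver they lay further from it, at 5.22 and 5.23 for Arntl, against 4.88, and 8.26 and 8.05 for Nr1d1, against 7.88. Without all 5 brain arrays that stood apart, where 4.14% of all probe sets were called, 5 of the 23 passed: Arntl (0.38 ± 0.05), Clock 1418659_at, both Npas2 probe sets (0.28 and 0.33) and, in the lower direction, Nr1d1. That setting was added after the data were seen.

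**Figure D2:**
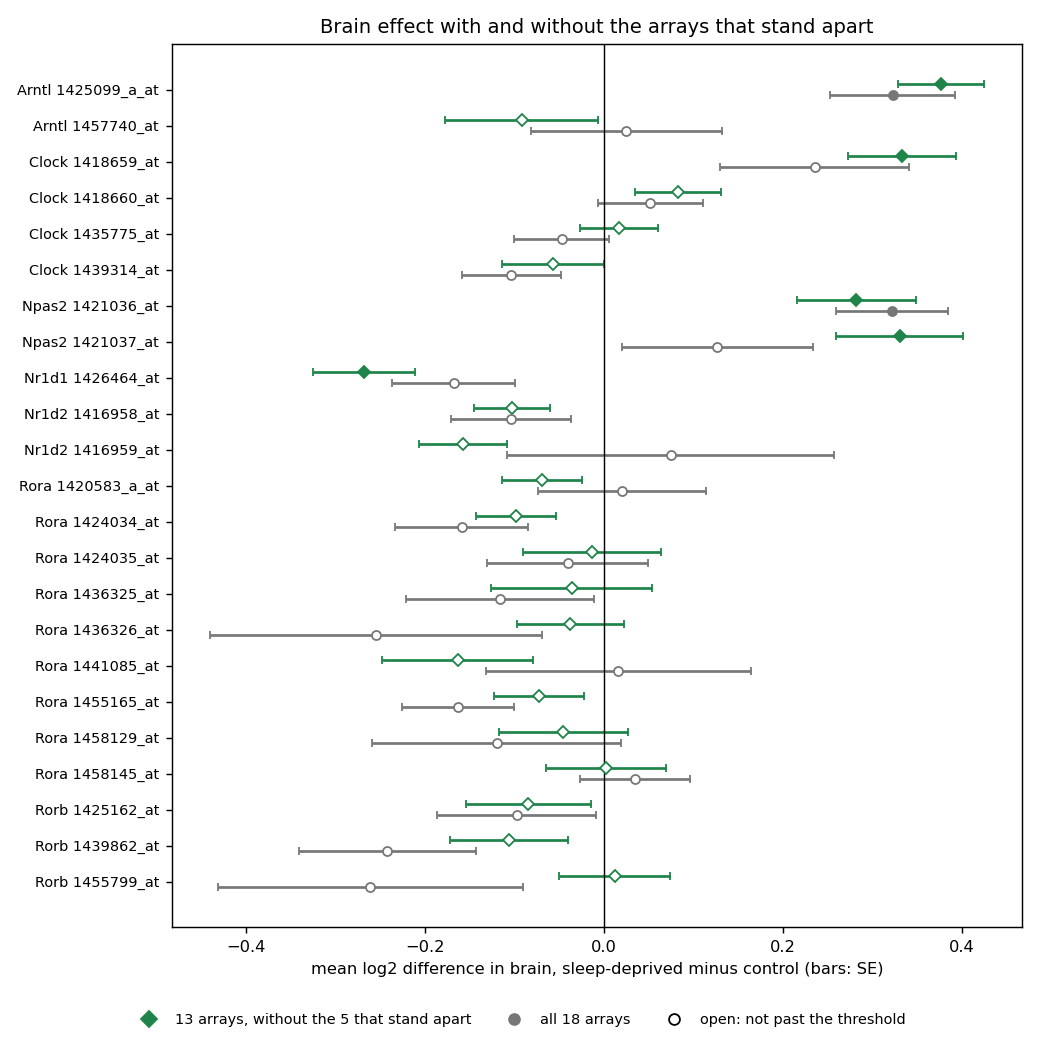
Mean log2 difference in brain, sleep-deprived minus control, for the 23 probe sets without the 5 arrays that stand apart (green diamonds) and with all 18 arrays (grey circles); bars are SE from limma and filled symbols have an adjusted p under 0.05. Clock 1418659_at, Npas2 1421037_at and Nr1d1 are filled only without those arrays, with differences of 0.33, 0.33 and -0.27.

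In liver the activator that passed for the mean effect was Clock, on the same probe set that missed the threshold in brain. Clock on 1418659_at read 6.23, 6.40 and 6.51 in sleep-deprived AKR/J liver, against 6.16, 6.26 and 6.08 in controls. In DBA/2J it read 6.50, 6.69 and 6.38 after sleep deprivation, against 6.03, 5.89 and 5.82 in controls. In C57BL/6J it read 6.60, 6.25 and 6.37 after sleep deprivation, against 5.87, 6.16 and 6.05 in controls. Groups were apart in DBA/2J and C57BL/6J and overlapped in AKR/J, where the lowest sleep-deprived array lay just below the highest control. The mean difference was 0.40 ± 0.06, or 1.32-fold (adjusted p = 0.0011). It passed under each of the 27 alternatives tried, with values of 0.37 to 0.49. By group mean the order was sleep-deprived DBA/2J (6.52 ± 0.16, SD, n = 3), C57BL/6J (6.41 ± 0.17) and AKR/J (6.38 ± 0.14), then control AKR/J (6.17 ± 0.09), C57BL/6J (6.03 ± 0.15) and DBA/2J (5.91 ± 0.11). The sleep-deprived and control AKR/J groups, which are neighbours there, differed by more than either SD, and the other neighbours by less than the larger SD of the pair. Within DBA/2J the difference of 0.61 ± 0.11, or 1.53-fold, passed on its own (adjusted p = 0.0156), although not without sleep-deprived array 1 (0.62, adjusted p = 0.0673) or array 2 (0.53, adjusted p = 0.0802). The other Clock probe sets gave 0.15 ± 0.07 (1418660_at, adjusted p = 0.2871), -0.056 ± 0.07 (1435775_at) and -0.0072 ± 0.06 (1439314_at), and did not pass. Of all Clock probe sets 1418660_at was the brightest in liver, with a mean of 6.40 over the arrays, against 6.24 for 1418659_at.

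Arntl gave nearly the same size of difference in liver as in brain, with a wider spread. On 1425099_a_at it read 5.73, 5.53 and 5.22 in sleep-deprived AKR/J liver, against 4.88, 5.22 and 5.23 in controls. In DBA/2J it read 5.11, 5.67 and 5.26 after sleep deprivation, against 5.51, 4.93 and 4.88 in controls, where the highest control was array 1, the array of raised beta-actin difference. In C57BL/6J it read 5.01, 4.93 and 5.49, against 4.57, 5.13 and 4.66. Conditions overlapped in every strain, and the mean difference of 0.33 ± 0.12 did not pass (adjusted p = 0.1460, and 0.0526 to 0.3659 over the alternatives). Npas2 was dim in liver, with group means of 3.61 to 3.91 on 1421036_at and 2.72 to 2.99 on 1421037_at. Its differences of 0.16 ± 0.06 (adjusted p = 0.1931) and 0.064 ± 0.07 (adjusted p = 0.7152) did not pass. By mean level 1421036_at lay above 41.4% of all probe sets in liver and 1421037_at above 10.7%. Whether RMA compressed these differences was not tested.

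**Figure D3:**
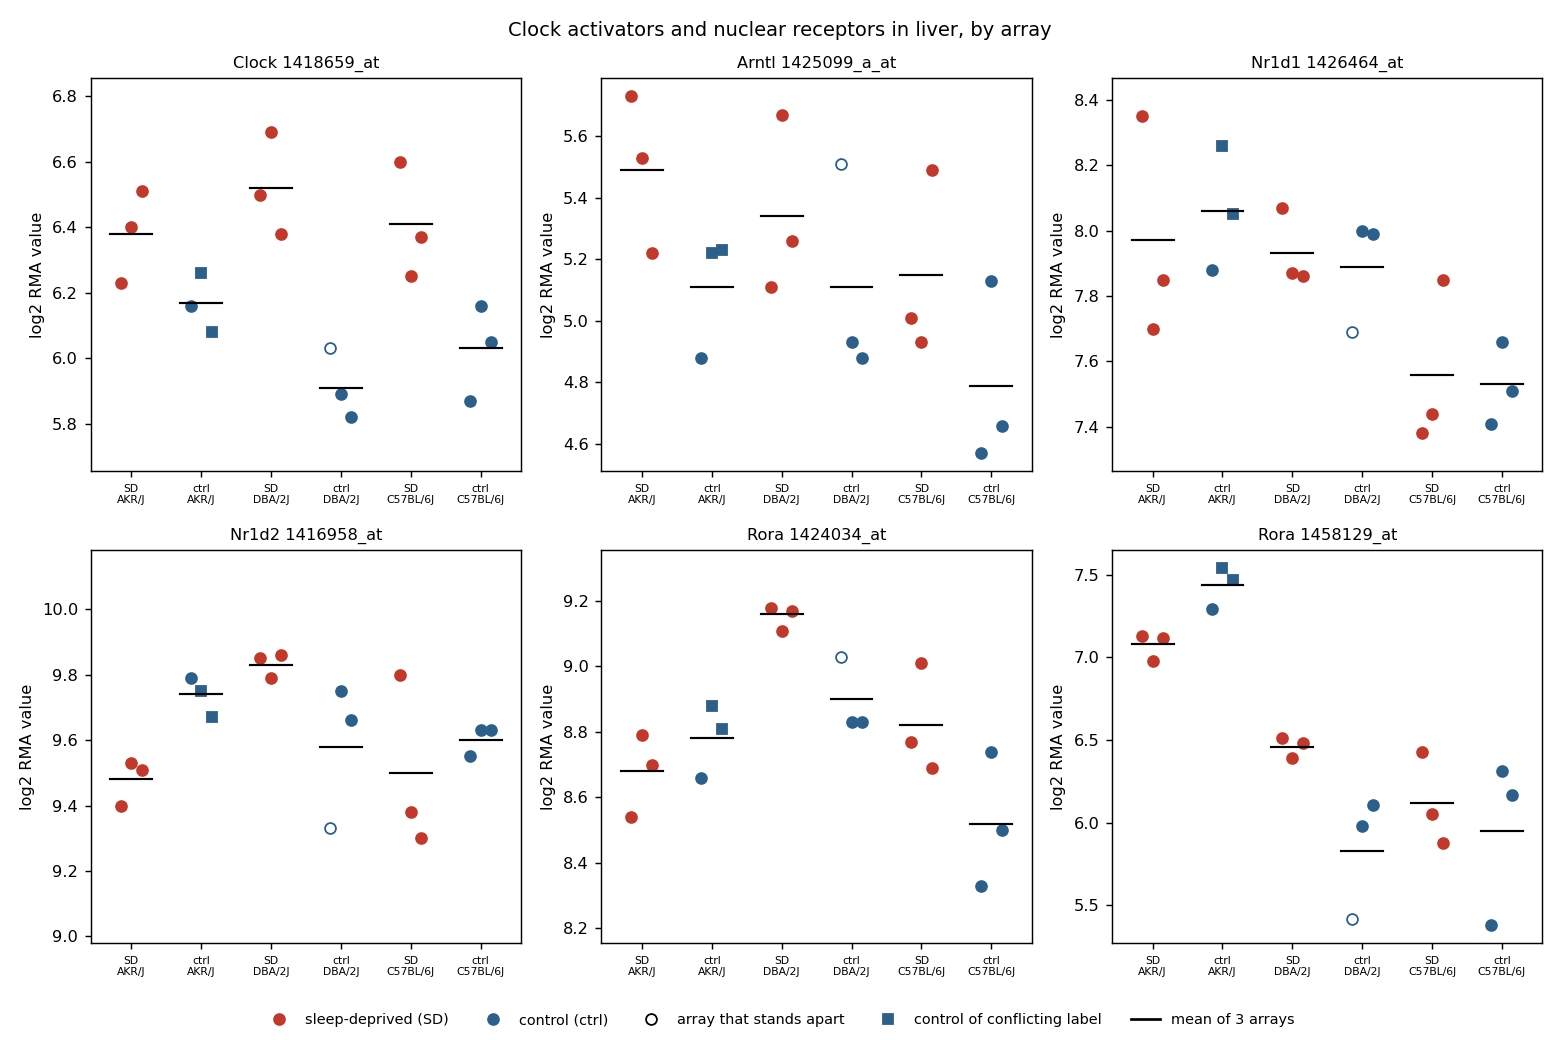
Log2 RMA values in liver by array for 6 probe sets of Clock, Arntl, Nr1d1, Nr1d2 and Rora; sleep-deprived groups (SD, red) stand left of their controls (ctrl, blue), bars are means of 3 arrays, the open symbol is the DBA/2J control array that stands apart and squares are controls of conflicting label. Clock reaches 6.23 to 6.69 in sleep-deprived liver and 5.82 to 6.26 in control liver, and Rora 1458129_at is highest in both AKR/J groups.

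The receptor genes gave no call for the mean effect in liver. Nr1d1 read 7.38 to 8.35 with a median of 7.85 in sleep-deprived liver, against 7.41 to 8.26 with a median of 7.88 in control liver, and its mean difference was -0.01 ± 0.09 (adjusted p = 0.9775). Nr1d2 on 1416958_at gave -0.039 ± 0.07 (adjusted p = 0.8454), with opposite differences in AKR/J and DBA/2J. It read 9.40, 9.53 and 9.51 in sleep-deprived AKR/J liver against 9.79, 9.75 and 9.67 in controls, and 9.85, 9.79 and 9.86 in sleep-deprived DBA/2J liver against 9.33, 9.75 and 9.66 in controls. In both strains the conditions did not overlap, in AKR/J with sleep-deprived arrays below and in DBA/2J above, and neither strain's difference passed. Nr1d2 on 1416959_at read 4.65 on DBA/2J control array 1, against 5.88 to 7.07 over the sleep-deprived arrays and 6.44 to 6.80 on the other control arrays, and gave 0.19 ± 0.21 (adjusted p = 0.7413). That array also had the lowest Nr1d2 value on 1416958_at among liver controls, and the part of its raised beta-actin difference was not tested.

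Rora gave differences from -0.0031 to 0.29 over its 9 probe sets, of which none passed. Rora on 1420583_a_at had a lowest, median and highest value of 7.56, 7.90 and 8.47 in sleep-deprived liver, against 7.26, 7.79 and 8.03 in control liver (0.22 ± 0.08, adjusted p = 0.1846, the smallest of the 9). Rora on 1436326_at gave 0.29 ± 0.11 (adjusted p = 0.2125), and on 1424034_at 0.15 ± 0.06 (adjusted p = 0.2570). Rora on 1436325_at, at 0.16 ± 0.07 (adjusted p = 0.2275), passed once the AKR/J controls with conflicting labels were left out (0.26, adjusted p = 0.0438). The 3 Rorb probe sets were dim in liver, with group means of 2.76 to 4.03, and gave -0.018 to 0.0025.

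For the mean effect in liver limma thus called 1 of the 23 higher and 0 lower, while 3.6% of all probe sets were called, 2.4% higher and 1.21% lower. The median difference of the 23 was 0.064, against -0.013 over all probe sets, and 16 were above 0. Within AKR/J and C57BL/6J 0 of the 23 passed, where 0.711% and 0.615% of all probe sets were called. In DBA/2J 1 passed, where 0.628% were called. An unadjusted p under 0.05 was met by 3 of the 23 in AKR/J, 2 in C57BL/6J and 9 in DBA/2J. All probe sets were not counted at that looser threshold. The DBA/2J effect was above 0 on 19 of the 23, with a median of 0.16 against -0.020 over all probe sets, while the medians were 0.0058 in AKR/J and 0.11 in C57BL/6J. Of the 23, 9 belong to Rora, so they are not separate genes. DBA/2J control array 1, of raised beta-actin difference, read low on some, such as Nr1d2 1416959_at (4.65 against 6.63 and 6.75 on the other DBA/2J controls). On Clock 1418659_at it read highest of those controls (6.03 against 5.89 and 5.82), and its part was not tested.

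**Figure D4:**
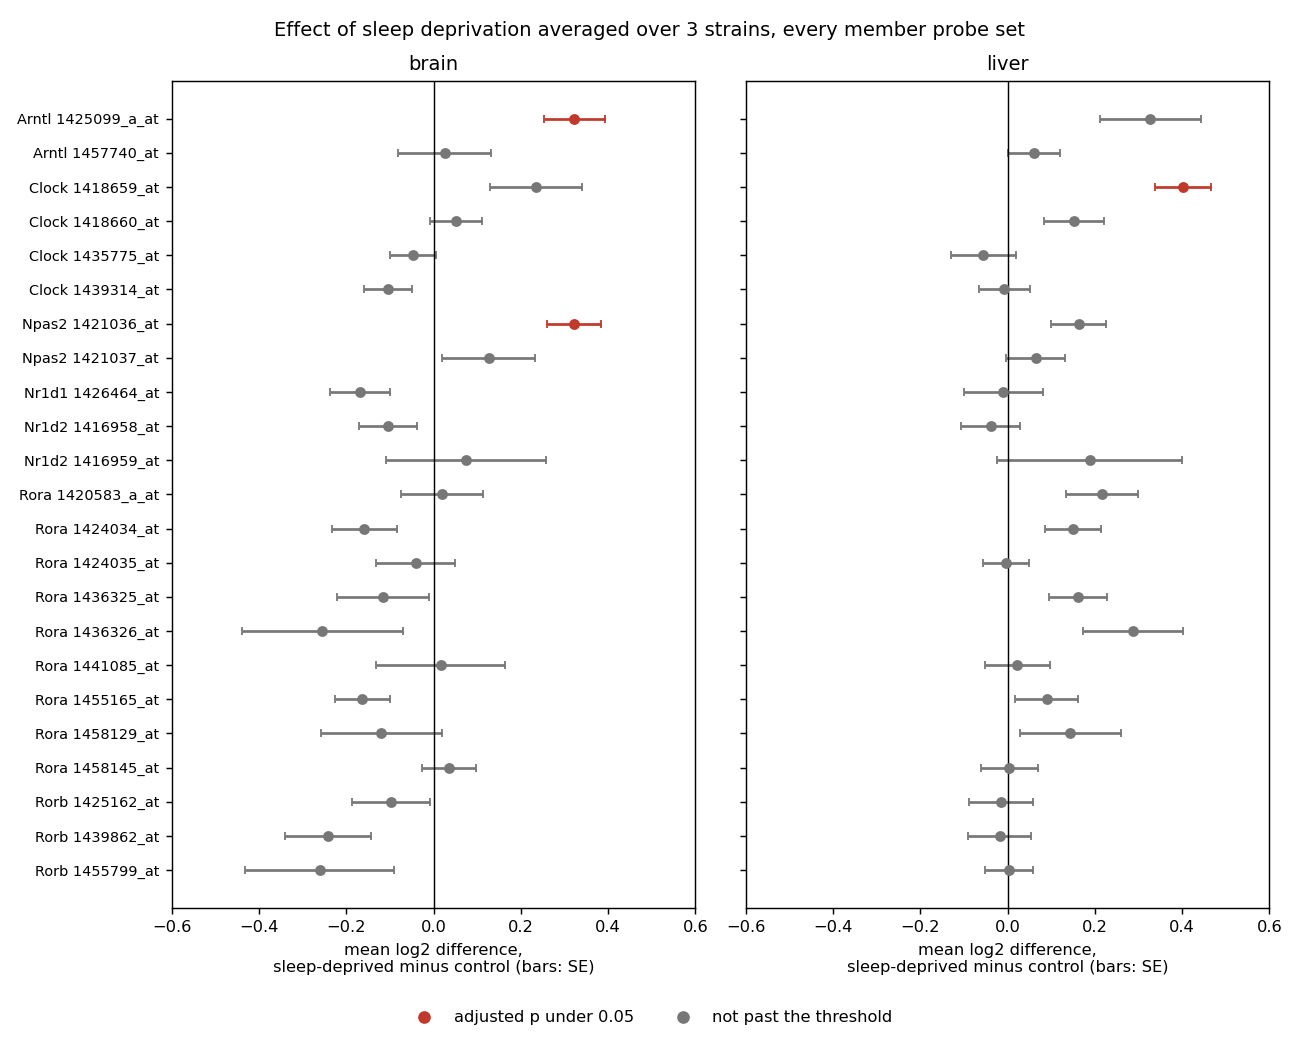
Mean log2 difference, sleep-deprived minus control, averaged over the 3 strains for each of the 23 probe sets in brain (left) and liver (right); bars are SE from limma and red marks an adjusted p under 0.05. In brain Arntl and Npas2 are red at 0.32 each, and in liver Clock is red at 0.40.

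Whether the response differed between the tissues was tested in a fit over all 36 arrays. That fit treated the arrays as independent, without a term for mice shared between the tissues. The sample records give 9 mice a group and 108 mice in all. Of the 23 probe sets 0 passed, while 1.38% of all probe sets were called by limma. An unadjusted p under 0.05 was met by 4 of the 23, with no such count over all probe sets. The difference nearest to the threshold was that of Rora on 1424034_at, at 0.15 in liver and -0.16 in brain, with a liver minus brain difference of 0.31 ± 0.10 (adjusted p = 0.1366). Clock 1418659_at, which passed in liver alone with all arrays, therefore has no shown difference from its response in brain, and the same holds for Arntl and Npas2. Levels were not set side by side across tissues, because the medians of the arrays, 4.73 to 4.86 in brain and 4.05 to 4.13 in liver, lie apart, and the sources used here do not state whether both tissues were normalised together.

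Among control mice, 1 Rora probe set set AKR/J apart in both tissues. In brain, Rora on 1458129_at read 6.81, 6.66 and 6.57 in DBA/2J controls, 8.01, 7.64 and 7.69 in AKR/J controls and 7.0, 6.21 and 6.78 in C57BL/6J controls. In liver it read 5.42, 5.98 and 6.11 in DBA/2J controls, 7.29, 7.54 and 7.47 in AKR/J controls and 5.38, 6.31 and 6.17 in C57BL/6J controls. The AKR/J arrays lay above all others in both tissues. AKR/J minus C57BL/6J was 1.12 ± 0.24 in brain, or 2.17-fold (adjusted p = 0.0179), where 2% of all probe sets were called, and 1.48 ± 0.20 in liver, or 2.80-fold (adjusted p = 8.32e-05), where 5.09% were called. DBA/2J minus AKR/J was -1.10 ± 0.24 in brain (adjusted p = 0.0226, 1.59% called) and -1.60 ± 0.20 in liver (adjusted p = 3.145e-05, 4.21% called). The liver differences passed under each of 26 alternatives. In brain, AKR/J minus C57BL/6J did not pass without control array 1 (1.00, adjusted p = 0.1056) or array 3 of AKR/J (1.16, adjusted p = 0.0563), without control array 2 of C57BL/6J (0.89, adjusted p = 0.1125) or without the AKR/J controls whose labels conflict (1.35, adjusted p = 0.1736). DBA/2J minus AKR/J in brain lost its call when any single one of the 6 control arrays of those strains was left out (-1.17 to -0.98, adjusted p = 0.0520 to 0.1406), and without the AKR/J controls whose labels conflict (-1.33, adjusted p = 0.1892).

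In the sleep-deprived groups, whose means do not enter that contrast, AKR/J also had the highest mean of the 3 strains on that probe set. It read 7.75, 7.90 and 6.75 in sleep-deprived AKR/J brain, 6.77, 6.36 and 6.70 in sleep-deprived DBA/2J brain and 6.65, 6.80 and 6.61 in sleep-deprived C57BL/6J brain, where the value of 6.75 was on the narrow AKR/J array. In sleep-deprived liver it read 6.98 to 7.13 in AKR/J mice, 6.39 to 6.51 in DBA/2J mice and 5.88 to 6.43 in C57BL/6J mice, with no overlap of AKR/J and the other strains. None of the other 8 Rora probe sets passed between strains in either tissue, where 1.9% of all probe sets in brain and 5.57% in liver were called for DBA/2J minus C57BL/6J. In liver the nearest to the threshold were 1436325_at and 1424034_at, with DBA/2J minus C57BL/6J at 0.39 ± 0.11 (adjusted p = 0.0554) and 0.37 ± 0.11 (adjusted p = 0.0616). In brain it was Rora on 1436325_at, with AKR/J minus C57BL/6J at 0.66 ± 0.18 (adjusted p = 0.0847), a difference that was 0.070 ± 0.11 in liver. Where each probe set lies along the gene was not analysed here.

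**Figure D5:**
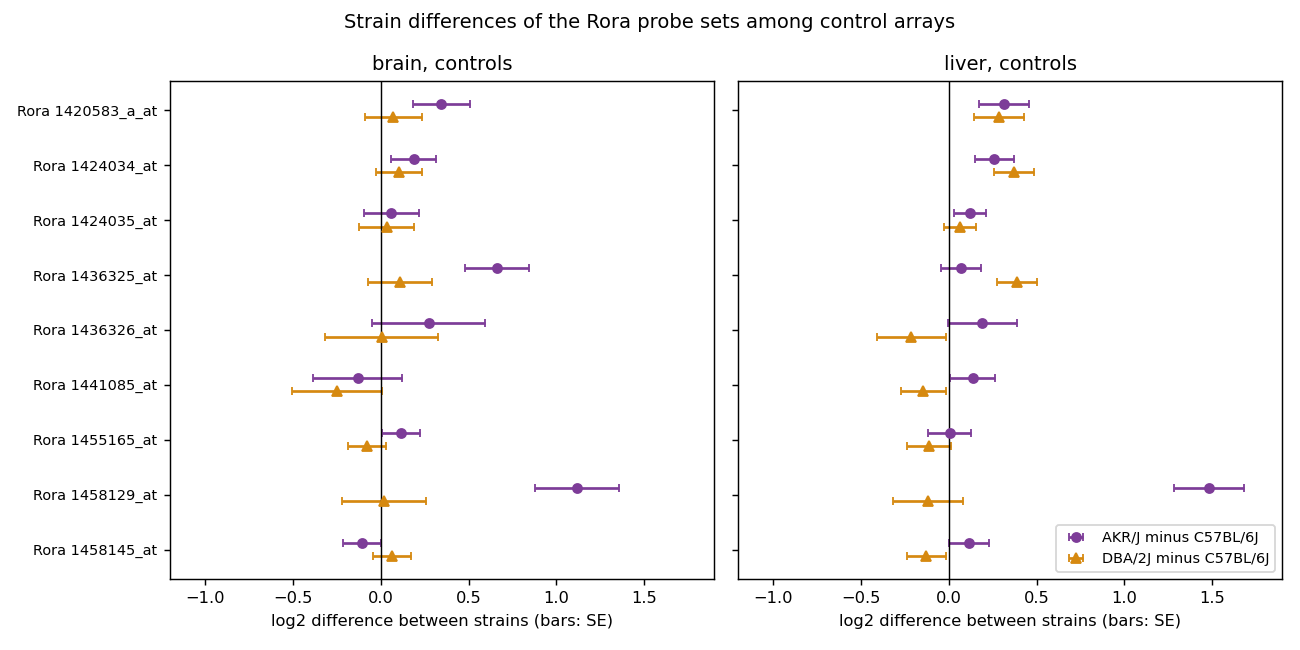
Log2 difference between strains among control arrays for the 9 Rora probe sets in brain (left) and liver (right), AKR/J minus C57BL/6J (purple circles) and DBA/2J minus C57BL/6J (orange triangles); bars are SE from limma. The largest differences are those of 1458129_at for AKR/J, at 1.12 in brain and 1.48 in liver.

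Clock on 1418660_at also varied between strains in liver controls. It read 6.40, 5.90 and 6.03 in DBA/2J liver, 6.57, 6.63 and 6.72 in AKR/J liver and 6.00, 6.43 and 6.28 in C57BL/6J liver. The AKR/J arrays were the highest, and DBA/2J minus AKR/J was -0.53 ± 0.12 (adjusted p = 0.0123), while AKR/J minus C57BL/6J at 0.40 ± 0.12 did not pass (adjusted p = 0.0607). The DBA/2J minus AKR/J call was lost without AKR/J control array 3 (-0.49, adjusted p = 0.0623), without DBA/2J control array 2 (-0.42, adjusted p = 0.0806) and without the AKR/J controls whose labels conflict (-0.46, adjusted p = 0.3381). Nr1d1 in controls was lowest in C57BL/6J in both tissues, without passing: AKR/J minus C57BL/6J was 0.46 ± 0.12 in brain (adjusted p = 0.0550) and 0.53 ± 0.16 in liver (adjusted p = 0.0559). By the F test over the 3 control groups, 1 of the 23 was called in brain and 2 in liver, against 3.13% and 8.54% of all probe sets.

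The strain by sleep deprivation interaction passed for 0 of the 23 in brain and 0 in liver. Over all probe sets limma called 0% in brain and 0.0333% in liver. An unadjusted p under 0.05 was met by 0 of the 23 in brain and 7 in liver, with no such count over all probe sets. Among the single liver differences, the one nearest to the threshold by unadjusted p was that of Rora on 1455165_at, DBA/2J effect minus AKR/J effect, at 0.67 ± 0.18 (limma, adjusted p = 0.3511). It read 7.48, 7.55 and 7.67 in sleep-deprived DBA/2J liver against 6.95, 7.29 and 7.34 in controls. In AKR/J liver it read 6.97, 7.20 and 6.86 after sleep deprivation against 7.16, 7.40 and 7.37 in controls. The value of 6.95 was on DBA/2J control array 1, the array of raised beta-actin difference, whose part was not tested.

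Genes that share the clock circuit were counted by their brightest probe set, on which 2.55% of 18193 genes were called in brain and 4.88% in liver. By the same count, 1 of the 7 genes described above was called in brain, Arntl, and 0 in liver. The calls of Npas2 in brain and of Clock in liver were on probe sets other than the brightest of the gene. Of 8 clock repressors, 1 was higher and 1 lower in brain: Bhlhe40, a repressor that competes for E-boxes (0.30 ± 0.06, adjusted p = 0.0200), and Ciart, which represses the ARNTL and CLOCK pair (-0.45 ± 0.08, adjusted p = 0.0042). Per2 (0.34, adjusted p = 0.2746) and Per3 (-0.19, adjusted p = 0.3401) did not pass. Of 4 output transcription factors, Dbp, an E-box target of ARNTL and CLOCK, was lower in brain (-0.83 ± 0.07, adjusted p = 2.132e-06), while Nfil3, which competes with DBP for its sites, gave 0.36 (adjusted p = 0.1115), Tef -0.12 and Hlf -0.098. Dbp read 8.03 to 8.83 in sleep-deprived brain and 8.99 to 9.72 in control brain, with no overlap. Of 7 clock-controlled outputs 1 was called in brain, the deubiquitinase gene Usp2 (-0.38 ± 0.06, adjusted p = 0.0041), while Nampt (-0.22), Elovl3 (0.14) and Alas1 (-0.11) did not pass. None of 6 measured kinases, ligases and corepressors passed in either tissue, and neither did Arntl2, the paralog of Arntl (0.044 in brain and 0.098 in liver). The largest differences among those 6 were -0.22 for Hdac3, the deacetylase through which REV-ERB represses, in brain (adjusted p = 0.2066) and 0.22 for Sirt1 in liver (adjusted p = 0.2522).

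In liver 2 of the 8 repressors were higher and 1 lower. Per1, which light and glucocorticoids induce, was higher by 0.45 ± 0.09 (adjusted p = 0.0101) and Cry1, a repressor and a known target of the REV-ERB and ROR loop, by 0.40 ± 0.08 (adjusted p = 0.0079), while Bhlhe41 was lower (-0.21 ± 0.05, adjusted p = 0.0343). Ciart gave 0.30 (adjusted p = 0.2093) and Per2 0.28 (adjusted p = 0.2114). None of the 4 output factors passed in liver, with Nfil3 at 0.45 (adjusted p = 0.0988) and Dbp at -0.34 (adjusted p = 0.1171). Of the 7 outputs 2 were higher and 1 lower: Insig2, a brake on sterol synthesis (0.44 ± 0.08, adjusted p = 0.0024), and Elovl3, a fatty acid elongase (0.44 ± 0.11, adjusted p = 0.0324), were higher, and Cyp7a1, the rate-limiting enzyme of bile acid synthesis, was lower (-0.83 ± 0.14, adjusted p = 0.0018). Cyp7a1 read 8.45 to 10.49 in sleep-deprived liver and 10.02 to 10.70 in control liver.

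The genes whose values over the 18 arrays of a tissue were most like those of the called probe sets are given as a description, since the points share groups and arrays. In brain, Arntl 1425099_a_at went most closely with Ilkap (Pearson r = 0.92), Hspa4l (0.90) and Pde4dip (0.90). Npas2 1421036_at in brain went with Ensa (0.89), Ptpn9 (0.89) and Dnajb1, a cochaperone of the heat shock response (0.88). Clock 1418659_at in liver went with Pde4dip (0.89), Pcf11 (0.89) and Snrnp48 (0.87). Dnajb1 was higher in sleep-deprived brain by 0.64 ± 0.09 (adjusted p = 0.00057) and Pde4dip in sleep-deprived liver by 0.50 ± 0.07 (adjusted p = 0.00045).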

How the data were processed

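The authors deposited log2 values from RMA, a tool named in the submitters' processing notes without a version. RMA corrects for background, equalises the distributions of arrays and combines the probes of each probe set into 1 value, and differences between dim probe sets come out compressed. Values ran from 2.12 to 14.91 with 0 missing, and no further scaling was applied. Arrays have no sequencing depth, so precision is limited by their number. Genes were named through the platform annotation: of 45037 probe sets, after 64 control probe sets were left out, 34945 had 1 symbol, 932 several and 9160 none.

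The 18 arrays of a tissue were fitted with 6 group means (limma 3.58.1, R 4.3.3), and the liver minus brain response over all 36 arrays. Two-sided p-values received Benjamini-Hochberg adjustment over the 45037 probe sets, and 0.05 was the threshold. Values after ± are standard errors unless an SD is named. All probe sets of the 7 genes are given. For other genes the probe set with the highest mean stands for the gene, and up to 4 genes per list with the largest mean effect are named. Genes most like a called probe set are the 3 with the highest Pearson r among genes with a mean above the tissue median. The genes and lists were chosen with earlier results of these data known. The fits were tested on simulated data. Alternatives concerned dim probe sets, scaling, variance moderation, array weights, a replicate block, single arrays, the controls of conflicting label and the arrays in the fit. Results without the arrays that stood apart were added after the data were seen.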

Additional observations from a re-analysis of the deposited data

Results flagged for a closer look

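A probe set was flagged where sleep-deprived arrays all lay above the controls in one strain or tissue and all below them in another. The lack of overlap given below is therefore the rule of selection and not a further result. How many of all probe sets meet that rule was not counted. Nr1d2 on 1416958_at differed in direction between strains in liver. Its effect of sleep deprivation was 0.25 in DBA/2J, with each sleep-deprived array above each control, and -0.26 in AKR/J, with each sleep-deprived array below each control. The effect in DBA/2J minus that in AKR/J was 0.51 ± 0.17 (limma, adjusted p = 0.4146), and the F test over the 3 strains had an adjusted p of 0.6426, so the difference did not pass. In DBA/2J the same probe set gave 0.25 in liver and -0.19 in brain, where the sleep-deprived arrays lay below the controls, and the effect in liver minus that in brain was 0.44, a difference that was not tested for this strain alone. Rora on 1458129_at in liver gave 0.62 in DBA/2J and -0.36 in AKR/J, again without overlap of the conditions in either strain, as the rule requires. The effect in DBA/2J minus that in AKR/J was 0.98 ± 0.28 (limma, adjusted p = 0.381), with an adjusted p of 0.5928 for the F test. DBA/2J control array 1, the liver array with a raised beta-actin difference, had the lowest DBA/2J value on both probe sets, 9.33 for Nr1d2 and 5.42 for Rora, and its part in these differences was not tested.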

How the results depend on the processing

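No called difference of the 23 probe sets changed direction under any alternative. The number called for the mean effect in brain, 2, was 1 with arrays centred on their medians, 1 in one fit over both tissues, 0 without the conflicting AKR/J controls, 0 with AKR/J left out, and 5 with array weights, without the narrow arrays or without all arrays that stood apart; with each array left out in turn it was 1 to 2. Over all probe sets the 778 called there became 85 with AKR/J left out, 300 without the conflicting controls, 499 centred, 1250 in one fit, 1374 after quantile normalisation, 1747 and 1866 without the arrays that stood apart and 3965 with array weights. Within strains in brain, with array weights the count of 0 became 2 (AKR/J), 1 (DBA/2J) and 1 (C57BL/6J), while the share of all probe sets called was 3.42%, 1.24% and 1.72%, against 0.3%, 0.104% and 0.0377%, and for AKR/J it was 1 without all arrays that stood apart. For brain strain differences, 1 became 2 centred, 2 in one fit, 5 with array weights, 0 without the conflicting controls, 4 without the narrow arrays and 3 without all arrays that stood apart, and 0 to 2 with single arrays left out. In liver the mean effect, 1, became 2 without the conflicting controls, where 982 probe sets in all were called against 1622. The DBA/2J effect, 1, became 0 with that strain's arrays alone and 0 to 1 with single arrays left out, and strain differences, 2, were 1 to 3. The liver minus brain count, 0, became 1 with array weights. Replicate numbers were not treated as pairs in the main fit. The deviations of arrays with the same number had r from -0.42 to 0.41 in brain and from -0.12 to 0.22 in liver, over 0.1 in 4 and 1 of 9 pairs. Of the 9, 3 in brain and 4 in liver correlated best with their own number. With 3 arrays a group this check did not show pairing and cannot exclude it. With the replicate block, 2 were called in brain and 1 in liver for the mean effect, and no count of called members changed. The causes were not tested.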

Other observations

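Several probe sets of the receptor genes had their most extreme brain value on one of the arrays of narrow spread. On sleep-deprived AKR/J array 3, Rora on 1436326_at read 5.91, against 7.48 and 7.73 on the other sleep-deprived AKR/J arrays and 7.69 to 7.77 in AKR/J controls. On the same array Rorb on 1455799_at read 4.03, against 5.50 and 5.50 on the other sleep-deprived arrays and 5.36 to 5.74 in controls. On sleep-deprived DBA/2J array 2, Rora on 1441085_at read 7.15, against 5.96 and 5.96 on the other sleep-deprived arrays and 5.94 to 5.99 in controls. Rora probe sets differed in this: on the AKR/J array 1458129_at read 6.75, against 7.75 and 7.90 on the other sleep-deprived AKR/J arrays, and 1436325_at read 5.25, against 5.64 and 5.87, while 1424034_at read 8.85, against 8.98 and 8.92. For the clock output Dbp the control arrays of conflicting label read 9.57 and 9.61, against 9.72 on the third AKR/J control, in brain. In liver they read 10.22 and 10.12 against 10.23. On Rora 1436325_at in liver they lay further from that control, at 6.78 and 6.76 against 6.33. On Nr1d2 1416958_at in liver they read 9.75 and 9.67 against 9.79.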
